A study of Homo sapiens with 18 samples.

Results

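C/D box snoRNAs were examined in small RNA-seq libraries of HEK293T cells, a human embryonic kidney line. The set comprised the features named SNORD with a number and no longer than 500 nt, without the imprinted SNORD113 to SNORD116 clusters and without U3, U8 and U13 as the rule defines them. This gave 228 of the 175935 features in the table under 221 names, and 212 after features with identical counts were taken once. Of the 228 features, 14 had no count in any library and were merged into 1 by this step, so 211 members carried counts. The pattern of names left in some U3-like copies (SNORD3E to SNORD3H, SNORD3J, SNORD3K and SNORD3P3) and 2 members of the imprinted SNHG14 region, SNORD64 and SNORD107, which held 1 and 2 counts in all libraries together.

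Cells had been transfected for 48 h with a scrambled siRNA (control) or an siRNA that targets SSB (siSSB), and RNA was taken from whole cells (total), nuclei (nuc) or cytoplasm (cyto). SSB encodes La, a protein that binds the 3′ ends of new RNA polymerase III transcripts. Each of the 6 groups had 3 libraries, 18 in all, and every library was labelled as treated with PNK. The table had 0 features named SSB, so the depletion of La was not checked here. These are bulk libraries of 1 cell line, in which less of an RNA per cell and more of the other RNAs cannot be told apart.

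C/D box snoRNAs are guides for 2′-O-methylation. The C box near the 5′ end and the D box near the 3′ end are bound by a protein complex that contains the methyltransferase fibrillarin, and a stretch before a D box pairs with the target, mostly 18S or 28S rRNA. Most human C/D box snoRNAs are cut out of introns of host genes by exonucleases after splicing, and they act in nucleoli and Cajal bodies. They are transcribed with their host by RNA polymerase II, not by RNA polymerase III.

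Annotated snoRNAs were matched for 210 members from RefSeq (GRCh38), with lengths of 48 to 237 nt and a median of 76 nt. A total of 196 members lay inside another annotated gene. There were 113 such host genes, 41 of them with 2 or more members. Genes of ribosomal proteins made up 17 of the hosts and held 41 members, and hosts named GAS5, ZFAS1 or SNHG (such as SNHG1) made up 14. The core of the C box, TGATGA, was found on the annotated strand within the first 20 nt of 53.3% of 210 members, and the core of the D box, CTGA, within the last 15 nt of 179 (85.2%). Both were found in 110 members (52.4%). Over 2109 other features of 90 to 160 nt in the table, the shares were 1.38%, 7.07% and 0.806%.

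The 4 members of RPL7A, the gene of a large ribosomal subunit protein on chromosome 9, are shown because SNORD36C, the last of them, was the single member past the threshold after SSB knockdown. They lie on the plus strand of hg38 in the order SNORD24 (chr9:133349396-133349470), SNORD36B (chr9:133350094-133350164), SNORD36A (chr9:133350456-133350527) and SNORD36C (chr9:133350846-133350913). Capitals mark the C core and D core where these letters were found.
SNORD24: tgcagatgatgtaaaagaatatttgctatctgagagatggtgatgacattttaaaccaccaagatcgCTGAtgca
SNORD36B: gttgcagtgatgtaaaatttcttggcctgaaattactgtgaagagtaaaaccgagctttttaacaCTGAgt
SNORD36A: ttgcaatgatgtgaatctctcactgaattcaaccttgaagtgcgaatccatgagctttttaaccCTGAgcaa
SNORD36C: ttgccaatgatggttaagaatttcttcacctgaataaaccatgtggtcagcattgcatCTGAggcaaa

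SNORD36C shared 52 of 81 aligned positions with SNORD36A (64.2%) and 47 of 81 with SNORD36B (58%), while SNORD36A and SNORD36B shared 52 of 76 (68.4%). Each of the 4 sequences had 1 exact full-length match on the assembled chromosomes, its own locus.

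SNORD44, SNORD48 and SNORD83A mark the extremes of level and of nuclear share. SNORD44, from the minus strand of GAS5 (chr1:173865968-173866028), a guide of 18S rRNA, was the member with the highest level. SNORD48, from SNHG32 (chr6:31835263-31835326, plus strand), a guide of 28S rRNA, had the highest nuclear over cytoplasmic level. SNORD83A, from RPL3 (chr22:39315213-39315307, minus strand), a member with no known target, came next. Each also had 1 exact full-length match.
SNORD44: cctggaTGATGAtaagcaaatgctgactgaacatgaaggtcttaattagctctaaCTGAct
SNORD48: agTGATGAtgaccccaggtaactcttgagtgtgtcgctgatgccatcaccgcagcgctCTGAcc
SNORD83A: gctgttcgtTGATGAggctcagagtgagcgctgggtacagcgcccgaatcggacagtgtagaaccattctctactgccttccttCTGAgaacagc

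The libraries held 2471886 to 7971280 counts in distinct features of at most 500 nt. The C/D members took 8.25% to 11.3% of them in control cyto, between 49.7% and 53.1% in control total, and 73.8% to 77.6% in control nuc. The siSSB libraries held 71.5% to 79.7% in nuc, 40.9% to 53.5% in total and 7.41% to 10.1% in cyto, so the ranges of siSSB and control overlapped in each kind of RNA. H/ACA snoRNAs, the pseudouridylation guides, took at most 3.73% in any library. Replicate 2 of siSSB total stood apart, with a scaling factor of 1.75 against 0.641 to 1.07 for the other total libraries. Markers of the fractions were mixed. Mitochondrial tRNAs held 21595 to 46458 CPM of features of at most 500 nt (counts scaled to their total) in cyto and 2099 to 3072 in nuc, while the nuclear RNAs MALAT1 and NEAT1 held more in cyto (136 to 230 and 150 to 205) than in nuc (17.9 to 61.9 and 32.2 to 75.1). RN7SL1, the second cytoplasmic marker, held 290 to 403 in cyto and 149 to 946 in nuc, and these ranges overlapped. The part of these marker values in the values below was not tested. MIR10A, one of 4 markers of the HEK293T line, held 149 to 21769 counts per library, and of 7 markers of other tissues none passed 13 counts in a library where it had a feature.

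SNORD44 led the class in all groups. Its counts were 641016, 564376 and 609430 in control total, while the control nuc libraries held 1846218, 1671082 and 1339868 and the control cyto libraries 82274, 67079 and 204816. Levels of members were compared as counts per nt of feature, given as a percent of the sum over members. On this scale SNORD44 made up 24.2% ± 3.71 (SD, n = 3) of the class in control total, 34.2% ± 2.19 in control nuc and 35.5% ± 1.70 in control cyto. With siSSB the values were 26.9% ± 2.77, 31.1% ± 1.02 in nuc and 32.5% ± 1.44 in cyto. The next levels in control total were SNORD29 from SNHG1, a guide of 28S rRNA (8.10% ± 0.907), and SNORD81 from GAS5, another 28S guide (6.0% ± 2.24), which did not differ beyond the spread of SNORD81. SNORD101 from RPS12, which has no known target, followed at 5.71% ± 0.281, SNORD63 from HSPA9 at 5.18% ± 1.01 and SNORD43 from RPL3 at 4.53% ± 0.144. SNORD30 (3.97% ± 0.534), SNORD58A (3.54% ± 0.543), SNORD2 (3.46% ± 0.213) and SNORD59B (2.71% ± 0.0719) completed the 10 highest. Neighbours in this order differed by less than the larger of their SDs, except at the steps from SNORD44 to SNORD29, from SNORD43 to SNORD30 and from SNORD2 to SNORD59B. The 10 highest members together made up 67.4% of the class in control total. Over the 18 libraries, 40 members had fewer than 100 counts.

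**Figure D1:**
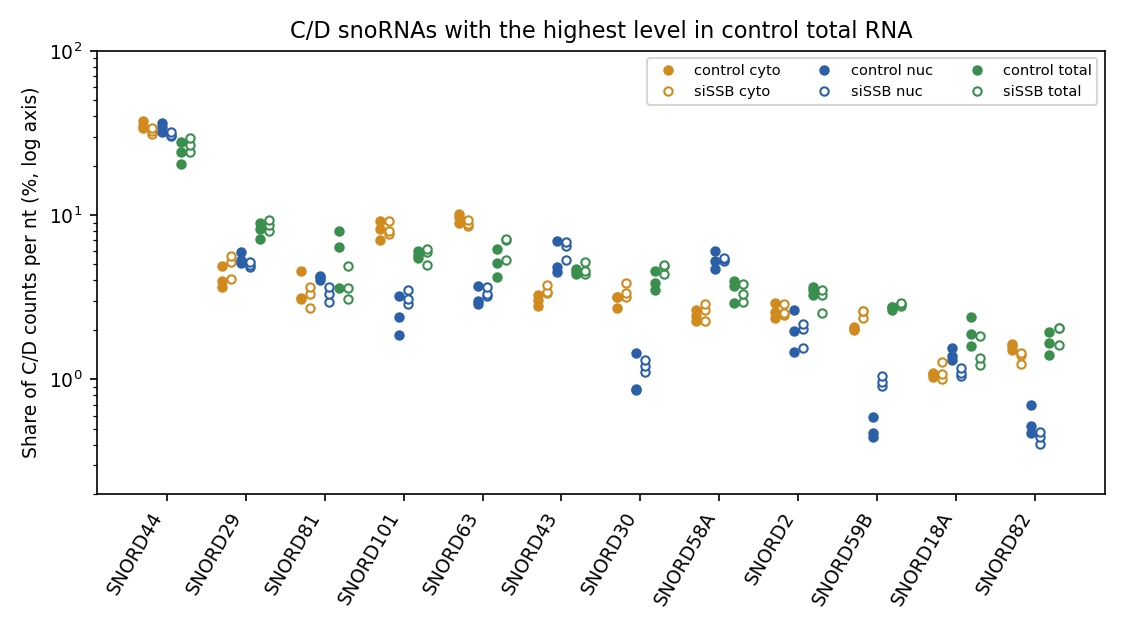
Length-scaled share of the C/D class (percent, log axis) for the 12 members with the highest level in control total RNA, with 1 point per library (filled control, open siSSB). SNORD44 sits above 20% in every library, and SNORD30 and SNORD59B sit lower in nuc than in cyto and total.

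Members of the same host gene differed widely in level. Among the 10 members in GAS5, control total shares ran from 0.00406% ± 0.00190 for SNORD77 to the 24.2% of SNORD44. Next to SNORD44 and SNORD81, SNORD74 reached 0.942% ± 0.241 and SNORD47, a common reference RNA in qPCR, reached 0.40% ± 0.0427. Among the 8 members in SNHG1, shares ran from 0.0141% ± 0.00602 for SNORD22 to the 8.10% of SNORD29. The 4 members in RPL13A were low, from 0.00282% ± 0.00143 for SNORD35A to 0.115% ± 0.0331 for SNORD32A. The 4 members in RPL7A lay between 0.0306% ± 0.00639 for SNORD36C and 0.0931% ± 0.0163 for SNORD24.

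The first comparison asked which members changed in whole cells when SSB was depleted. In total RNA, SNORD36C was the single member called lower at an adjusted p under 0.05, out of 165 members tested. Its counts were 1246, 658 and 612 in control and 196, 139 and 242 in siSSB. All siSSB libraries lay below all control libraries. In CPM, here scaled to the library size after normalization, the mean was 13.7 ± 6.99 (SD, n = 3) in control and 2.88 ± 1.08 in siSSB. The log2 fold change was -2.25 ± 0.39 (SE), with an adjusted p of 0.0223 in edgeR's quasi-likelihood test (Benjamini-Hochberg). Over all 13883 features tested, 0.972% were called lower, beside 1 of 165 members, and 0.367% higher, beside 0 members. At an unadjusted p under 0.05, 0 members were higher and 54 lower, against 7.53% and 9.05% of all features. When 1 library was left out, 6 (without control total replicate 1) to 92 (without siSSB total replicate 3) were lower and 0 to 2 higher. Scaling by library size alone gave 20 lower and 6 higher, and scaling by the total of the C/D members 11 and 9. Shares of all features at this threshold are not given for these other fits. DESeq2 called 0 members higher and 17 lower, beside 1.93% and 2.15% of all features. Without control total replicate 3 the edgeR fit called 13 members lower, beside 1.57% of 16154 features, and without siSSB total replicate 3 it called 2, beside 1.48% of 16489 features.

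As a class, C/D snoRNAs lay below the bulk of features in siSSB total. The median log2 fold change was -0.64 over members and -0.01 over all features tested, and 153 of 165 members had a negative value. The distance between both medians was -0.63, and between -0.97 and -0.32 when 1 library was left out, the smallest without siSSB total replicate 2. Library size alone moved the median of all features to 0.55 and that of members to -0.14. The total of the C/D members moved these medians to 0.72 and 0.02, so the number of negative members depends on the scaling. H/ACA snoRNAs had a median of -0.54, scaRNAs -0.16 and miRNAs 0.71 in the same fit. Within the class, the median was -0.56 for 39 guides of 18S rRNA, -0.65 for 59 guides of 28S rRNA and -0.63 for 9 members without a known target, with 0 calls in each list. At an unadjusted p under 0.05, 12, 17 and 3 of these were lower and 0 higher, beside 9.05% of all features lower. The 2 guides of 5.8S rRNA, SNORD71 and SNORD96A, had values between -1.41 and -1.06. By host gene, the median was -0.85 for the 10 members of GAS5, -0.71 for the 8 of SNHG1 and -0.35 for the 4 of RPL13A, with 0 calls in each and 6, 3 and 1 members lower at an unadjusted p under 0.05, beside the same 9.05%. In nuclear RNA the GAS5 members had a median of -0.53, with 0 calls and 6 lower at an unadjusted p under 0.05, beside 5.38% of all features.

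The 6 guides of the spliceosomal U6 snRNA included SNORD7 (Z30), a small RNA control in the qPCR assays of the study. SNORD7 had 554, 432 and 404 counts in control total and 285, 283 and 385 in siSSB total, with a log2 fold change of -0.67 ± 0.28 (adjusted p = 0.250). The ranges of counts did not overlap, but those of CPM did, and the change did not pass the test. Scaled to the miRNA total, SNORD7 had -1.20 and passed (adjusted p = 0.0065), in an edgeR fit that called 20.7% of all features lower. SNORD10, from EIF4A1, had 11560, 3319 and 2062 counts in control total and 1106, 491 and 3005 in siSSB total. The groups overlapped, and the log2 fold change of -2.01 ± 0.73 did not pass (adjusted p = 0.189). Without control total replicate 3 it was -2.46 and passed (adjusted p = 0.0494), and with library size alone it was -1.49 and passed as well (adjusted p = 0.0183). SNORD10 also passed with the total of features of at most 500 nt, the C/D total, the miRNA total and no filter. The adjusted p was 0.0211, 0.0118, 0.00727 and 1.5e-05 in these edgeR fits. It did not pass with RLE size factors, with identical features merged or with the replicate number as a block. SNORD8, SNORD9, SNORD94 and SNORD67 had -1.36 ± 0.58, -0.86 ± 0.32, -0.85 ± 0.32 and -0.13 ± 0.27 (adjusted p of 0.267, 0.205, 0.206 and 0.861). The common reference RNAs SNORD44, SNORD47 and SNORD48 had -0.45 ± 0.44, -0.83 ± 0.42 and -0.44 ± 0.40 (adjusted p of 0.672, 0.363 and 0.656). SNORD47 had -1.32 and passed in the edgeR fit scaled to the miRNA total (adjusted p = 0.0280). The members nearest to a call in the upward direction, SNORD14E, SNORD83B and SNORD33, had 0.51 ± 0.28, 0.49 ± 0.28 and 0.47 ± 0.30 and did not pass (adjusted p of 0.418, 0.440 and 0.498).

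**Figure D2:**
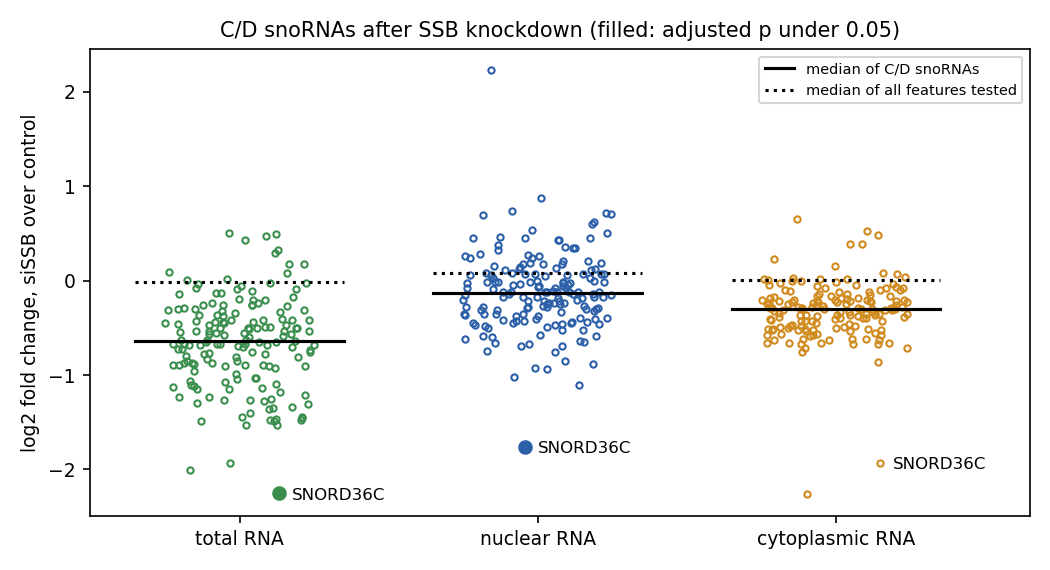
Log2 fold change of siSSB over control for each member tested in total, nuclear and cytoplasmic RNA, with filled points for adjusted p under 0.05 and lines for the medians of members (solid) and of all features tested (dotted). SNORD36C is the filled point in total (-2.25) and nuclear RNA (-1.76), and in total RNA the medians are -0.64 for members and -0.01 for all features.

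In nuclear RNA the same question gave the same member. SNORD36C had 1228, 1407 and 1066 counts in control nuc and 368, 396 and 380 in siSSB nuc. The ranges were far apart and each was narrow. Mean levels were 10.4 ± 1.74 and 3.08 ± 0.337 CPM, with a log2 fold change of -1.76 ± 0.29 (adjusted p = 0.00709). It was the 1 member called lower of 168 tested, and 0 were called higher, beside 0.349% and 0.0291% of 6873 features. The call ended without siSSB nuc replicate 1 (adjusted p = 0.0657) or replicate 2 (adjusted p = 0.197), and under scaling by library size alone (adjusted p = 0.0958), with log2 fold changes of -1.75, -1.70 and -1.41. At an unadjusted p under 0.05, 3 members were higher and 20 lower, beside 8.57% and 5.38% of features, and DESeq2 called 0 higher and 2 lower, beside 0.0291% and 0.509%.

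The class as a whole lay closer to the other features in nuclear RNA. Members had a median log2 fold change of -0.13, against 0.08 over all features. SNORD170, from TRIO, had 1, 3 and 5 counts in control nuc and 11, 21 and 14 in siSSB nuc. These are few counts, and the log2 fold change of 2.23 ± 0.58 did not pass (adjusted p = 0.135). SNORD59B, an 18S guide from ATP5F1B, had 0.69 ± 0.25 (adjusted p = 0.249), and SNORD83B, from RPL3, had 0.87 ± 0.33 (adjusted p = 0.251). SNORD7 had 0.07 ± 0.27 (adjusted p = 0.934), SNORD10 had -0.51 ± 0.24 (adjusted p = 0.364), SNORD44 had -0.40 ± 0.18 (adjusted p = 0.334), SNORD47 had -0.75 ± 0.28 (adjusted p = 0.251) and SNORD48 had 0.23 ± 0.21 (adjusted p = 0.588).

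In cytoplasmic RNA 0 of 158 members passed the test, beside 0.27% of 18921 features called lower and 0.0211% higher. At an unadjusted p under 0.05, 12 members were lower and 0 higher, against 4.51% and 2.16% of features. DESeq2 called 1 member lower, SNORD36C, and 0 higher, beside 0.835% and 0.0264% of features. SNORD36C had 135, 123 and 461 counts in control cyto and 64, 67 and 48 in siSSB cyto. Control replicate 3, the deepest cyto library, was high, and the groups did not overlap in CPM, with 7.96 ± 4.21 in control and 2.09 ± 0.392 in siSSB. The log2 fold change was -1.93 ± 0.38 (adjusted p = 0.0767). In the same direction SNORD160, from KIF2C, had 16, 14 and 44 counts in control and 3, 8 and 4 in siSSB, with a value of -2.26 ± 0.47 (adjusted p = 0.0972), and SNORD143, from SEC31A, had -0.67 ± 0.23 (adjusted p = 0.490). The highest-ranked members in the other direction were SNORD95 from RACK1, SNORD53 from WDR43 and SNORD35A, with 0.52 ± 0.24, 0.48 ± 0.27 and 0.65 ± 0.39 (adjusted p of 0.768, 0.835 and 0.835). The median was -0.30 over members and 0.01 over all features. SNORD7 had 0.00063 ± 0.34, SNORD10 had 0.39 ± 0.43, SNORD44 had -0.58 ± 0.31, SNORD47 had -0.62 ± 0.33 and SNORD48 had -0.29 ± 0.24, and none of these passed.

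Because SNORD36C comes from the same host transcript as SNORD24, SNORD36A and SNORD36B, its counts were set against theirs within each library. This ratio needs no scaling across libraries and was chosen after the values were seen. In total RNA there were 0.714, 0.704 and 1.04 counts of SNORD36C per count of SNORD36A in control and 0.439, 0.311 and 0.304 in siSSB. In nuc the ratios were 0.819, 0.946 and 0.977 in control and 0.227, 0.239 and 0.240 in siSSB. In cyto they were 1.38, 1.45 and 3.39 in control and 0.901, 0.528 and 0.571 in siSSB. The siSSB ratios lay below all control ratios in each kind of RNA, and the mean ratio on the log scale was 2.33, 3.88 and 2.92 times higher in control than in siSSB. Against SNORD24 it was 2.50, 1.94 and 3.07 times higher, and against SNORD36B 3.50, 3.05 and 2.80 times higher. All of these 9 comparisons had groups that did not overlap, and the two-sided exact permutation p was 0.1 in each, the smallest that 3 libraries against 3 allow. They use the same SNORD36C counts as the calls above, so they are a description and not 9 separate tests. SNORD36A itself had 1744, 934 and 586 counts in control total and 446, 447 and 797 in siSSB total, which overlap, and 1499, 1487 and 1091 in control nuc against 1621, 1656 and 1585 in siSSB nuc. SNORD24 had 4281, 4818 and 3621 counts in control nuc and 2579, 2096 and 3044 in siSSB nuc, which do not overlap. In the edgeR fits, 3, 2 and 1 of the 4 RPL7A members were lower in total, nuc and cyto at an unadjusted p under 0.05. None was higher, and 9.05%, 5.38% and 4.51% of all features were lower. The fall was thus not shown to be confined to SNORD36C within its host.

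**Figure D3:**
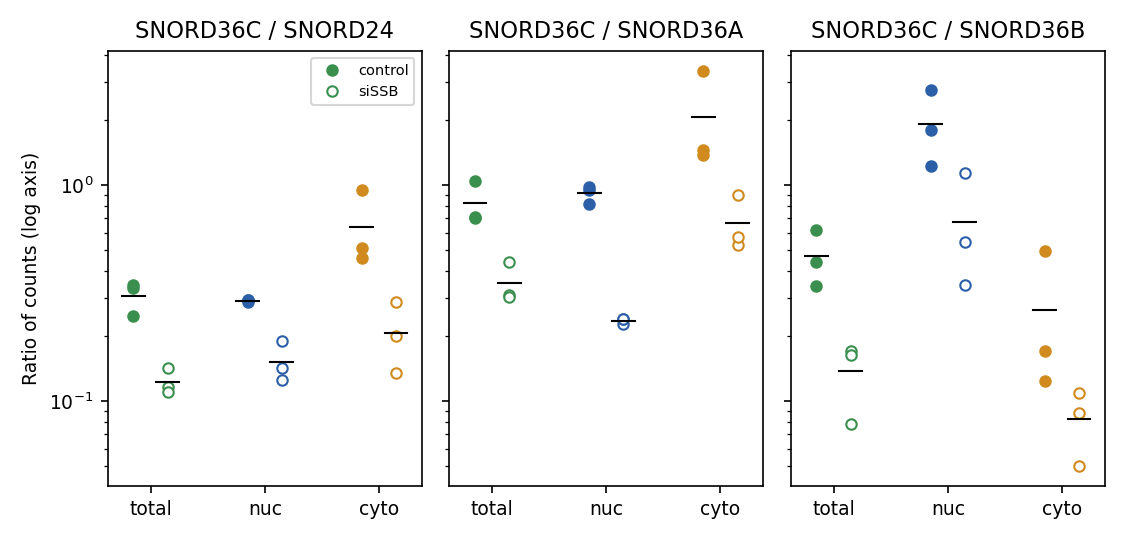
Ratio of SNORD36C counts to those of SNORD24, SNORD36A and SNORD36B, members of the same host gene RPL7A, in each library (log axis, filled control, open siSSB, bars for means). In all 9 pairs of groups the siSSB points lie below the control points, for SNORD36A in nuc at 0.227 to 0.240 against 0.819 to 0.977.

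The fraction comparison asked where the members lie in the cell. In control cells 160 of 166 members tested were higher in nuc than in cyto and 4 were lower, beside 9.21% and 14.1% of 26774 features. In siSSB cells 160 of 165 were higher and 3 lower, beside 10.9% and 14.5% of 26274 features. The median log2 fold change of nuc over cyto was 5.54 over members in control cells, against -0.27 over all features, and 5.50 against -0.19 in siSSB cells. In control cells H/ACA snoRNAs had a median of 5.46, U3, U8 and U13 features 3.49, scaRNAs 1.22 and miRNAs -2.95. The size of these values depends on the scaling, since the median over all features moved to -4.34 with library size alone, where 62.7% of members tested were higher and 16.3% lower in control cells, beside 2.48% and 96.3% of all features. The distance between the medians of members and of all features moved little, from 5.71 to 5.81 over 6 scalings.

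All 39 tested guides of 18S rRNA and all 59 of 28S rRNA were called higher in nuc in both kinds of cells, with control medians of 5.65 and 5.84. This is near the share of the whole class, 160 of 166 members in control and 160 of 165 in siSSB cells. Of all features, 9.21% and 10.9% were called higher. The 6 U6 guides were called higher in nuc too, from 3.69 for SNORD7 to 7.92 for SNORD10 in control cells. The 10 members of GAS5 ranged from 4.68 to 7.01 and the 8 of SNHG1 from 4.21 to 8.32.

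SNORD48 had the largest difference between the fractions. It had 78979, 46011 and 63411 counts in control nuc and 277, 205 and 390 in control cyto. The log2 fold change was 9.74 ± 0.43 in control and 10.10 ± 0.40 in siSSB cells (adjusted p of 2.2e-16 and 5.9e-15). SNORD83A followed with 9.11 ± 0.43 in control and 8.95 ± 0.39 in siSSB cells. Also among the 5 largest in both kinds of cells, without regard to order, were SNORD32A, a guide of 18S rRNA from RPL13A, with 8.93 ± 0.42 and 8.83 ± 0.40, and SNORD96A, a guide of 5.8S rRNA from RACK1, with 8.43 ± 0.40 and 8.66 ± 0.40. SNORD31 from SNHG1 was among the 5 largest in siSSB cells (8.53 ± 0.40).

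At the other end, 5 members with at least 50 counts on average had the smallest differences in both kinds of cells. SNORD36B was the lowest, with 998, 785 and 388 counts in control nuc and 1094, 719 and 930 in control cyto, which overlap before scaling. Its log2 fold change was 1.56 ± 0.32 in control and 1.73 ± 0.38 in siSSB cells (adjusted p of 0.000290 and 0.000999). SNORD17 from SNX5, the longest annotated member, had 1.91 ± 0.34 and 2.48 ± 0.38. SNORD15B from RPS3 had 2.20 ± 0.34 and 2.67 ± 0.36, SNORD169 from SMOC1 2.32 ± 0.36 and 2.40 ± 0.40, and SNORD98 from CCAR1 2.55 ± 0.33 and 2.56 ± 0.35. These passed the test, but their direction turned under scaling by library size alone, where SNORD36B had -2.65 in control cells. SNORD36A and SNORD36C from the same host had 5.65 ± 0.34 and 4.47 ± 0.37 in control cells.

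The members called lower in nuc were few and held few counts, and they are named here after their values were seen. SNORD3P3, SNORD3E and the SNORD141A copies held at most 9 counts in any nuc library and passed the filter on low counts through the cytoplasmic libraries, where they are high, so their calls are given as a description. SNORD3P3, a U3-like copy, had 0, 2 and 1 counts in control nuc and 70, 40 and 37 in control cyto, and 1, 0 and 0 against 33, 15 and 53 in siSSB cells. SNORD3E, another U3-like copy, had 0, 1 and 0 against 17, 11 and 9 in control cells, a call that ended without control cyto replicate 1 or 2 or control nuc replicate 1 or 3. SNORD141A copies were the others. The copy on chromosome 9 had 4, 3 and 3 counts in control nuc and 39, 33 and 63 in control cyto, and 2, 1 and 0 against 33, 39 and 39 in siSSB cells. The copy on chromosome 6, inside EEF1A1, had 7, 6 and 2 against 51, 35 and 57 in control cells, where it was called, and 9, 8 and 2 against 33, 49 and 18 in siSSB cells, where it was not. Its control call ended without control cyto replicate 1 or control nuc replicate 1 or 3. The copy on chromosome 5 had 0, 0 and 0 counts in siSSB nuc and 9, 5 and 11 in siSSB cyto, and was not called in control cells, with 2, 0 and 0 against 9, 5 and 13. Differences between control and siSSB cells in these calls were not shown, since 0 members passed the test of that difference. Copies of 1 name share sequence, so their single values are uncertain. SNORD89, a member without a known target from RNF149, had 4, 5 and 10 counts in control nuc and 25, 16 and 33 in control cyto, with a log2 fold change of 0.05 ± 0.49.

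**Figure D4:**
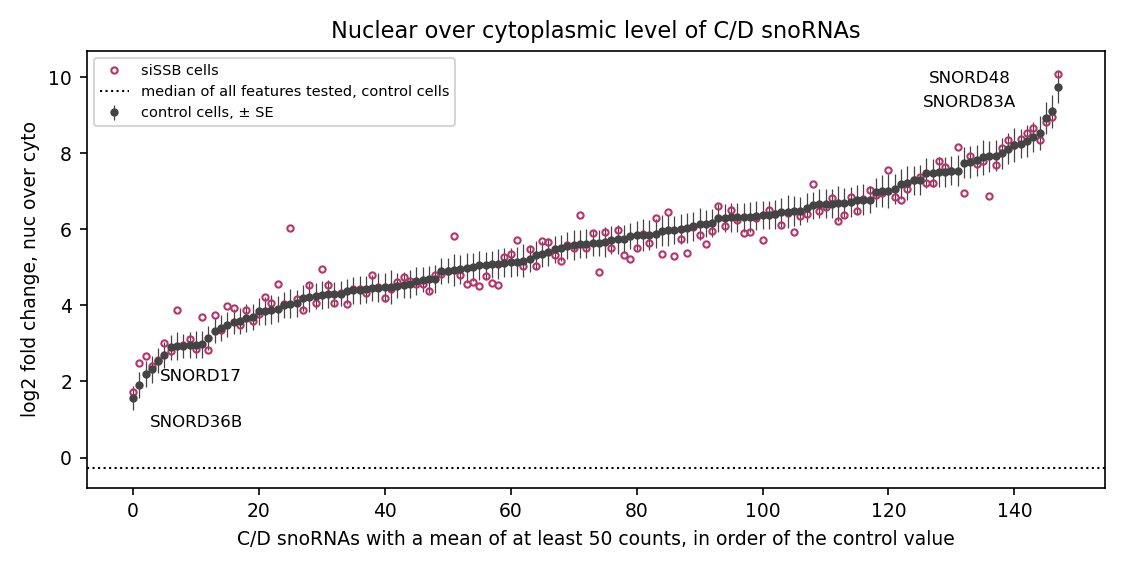
Log2 fold change of nuclear over cytoplasmic level for members with a mean of at least 50 counts, ordered by the control value (filled, ± SE), with the siSSB value beside it (open). Values rise from 1.56 for SNORD36B to 9.74 for SNORD48, above the median of all features tested in control cells (dotted, -0.27).

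Across 147 annotated members with at least 50 counts on average, the control log2 fold change of nuc over cyto had a Spearman correlation of 0.56 with the mean count, 0.30 with the GC content of the snoRNA and -0.05 with its length. These are descriptions across members that share libraries, and a nuclear count enters both the mean count and the fold change. The 79 members with both box cores had a median of 5.84 and the other 68 a median of 5.43.

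The last comparison tested whether the knockdown effect differed between nuclear and cytoplasmic RNA. None of 169 members passed in the edgeR fit of the 12 fraction libraries, beside 0.0133% of 37493 features, and DESeq2 called 0 as well. At an unadjusted p under 0.05, 2 members had a higher and 1 a lower effect in nuc than in cyto, beside 4.9% of features in either direction. The 3 were SNORD160 (2.03 ± 0.58), SNORD145 from TMEM53 (1.86 ± 0.78) and SNORD10 (-1.03 ± 0.46), each with an adjusted p of 0.958. SNORD143 had 0.95 ± 0.51, SNORD21 from RPL5 had -0.76 ± 0.41 and the SNORD141A copy on chromosome 9 had -1.59 ± 0.91, which did not pass. For SNORD36C the difference between nuc and cyto was 0.04 ± 0.43 (adjusted p = 1.00), so its call in nuc and missed call in cyto were not shown to differ.

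Total RNA was not always a mean of the fractions for single members. For 147 members with at least 50 counts on average, the range of length-scaled shares in total was compared with the ranges in nuc and cyto, as a description without a test. In control cells 14 members lay above both fractions in all total libraries and 10 lay below both. In siSSB cells these numbers were 13 and 19. Of 989 other features of at most 500 nt on the same denominator, 0% lay above both and 4.75% below both in control cells, and 0% and 4.95% in siSSB cells. Of 80 H/ACA snoRNAs scaled to their own class, 1.25% and 2.5% did in control cells and 2.5% and 1.25% in siSSB cells. The members amount to 9.52% and 6.80%, and 8.84% and 12.9%. The 989 other features are not a like background for the members. The C/D members took a share of short-feature counts in total that lay between those in nuc and cyto. Dividing another feature by their sum thus tends to place its total value between the fractions. Of the C/D members, 10 and 7 members were on the same side in both kinds of cells.

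SNORD48 lay far below its nuclear share and just below its cytoplasmic share. Its share was 0.973% to 1.58% in control nuc and 0.0692% to 0.111% in control cyto, but 0.0439% to 0.0626% in control total. The counts were 2018, 1162 and 988 in control total, below the 46011 of the lowest control nuc library. In siSSB cells the share was 1.55% to 2.59% in nuc, 0.0800% to 0.124% in cyto and 0.0553% to 0.0626% in total. SNORD88A from C19orf48P, SNORD124 from MED24, SNORD95, SNORD94 (a U6 guide), SNORD45B and SNORD44 were also below both fractions in both kinds of cells.

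Among members above both fractions, SNORD56 from NOP56, a guide of 18S rRNA, had a share of 0.103% to 0.115% in control total, against 0.0107% to 0.0133% in nuc and 0.0413% to 0.0538% in cyto. SNORD53B from WDR43 had 0.0509% to 0.0630% in control total, against 0.00610% to 0.00976% and 0.0285% to 0.0340%. The others were SNORD29, SNORD30 and SNORD27 from SNHG1, SNORD12B and SNORD12C from ZFAS1, SNORD47, SNORD59B and SNORD127.

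**Figure D5:**
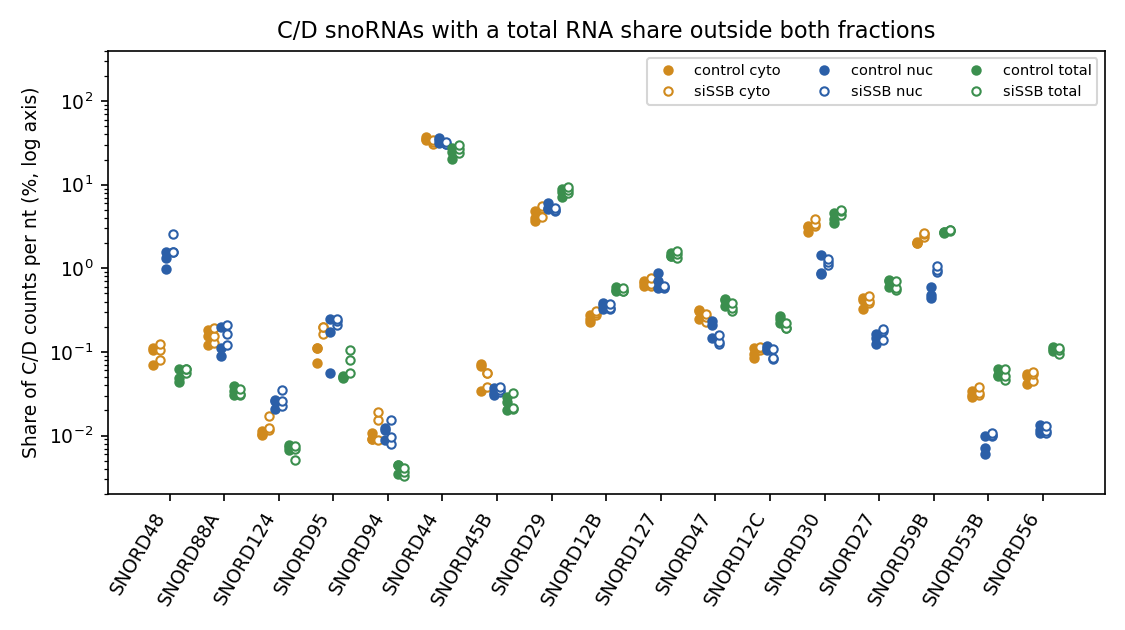
Length-scaled share of the C/D class (percent, log axis) for the 17 members whose total RNA libraries lie below both fractions (first 7) or above both (last 10) in control and siSSB cells, with 1 point per library (filled control, open siSSB). SNORD48 has 0.0439% to 0.0626% in control total against 0.973% to 1.58% in control nuc.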

How the data were processed

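The authors deposited 1 table of raw counts, unnormalized whole numbers of reads for each annotated noncoding RNA, for 18 libraries made with a small RNA kit. Their processing notes name Bowtie2, bedtools and hg38. Other settings are not given in the sources used here. Features mostly extend 25 nt beyond each end of the annotated gene, strand was not used, and a read is counted in every feature it overlaps, so column sums (21565995 to 158244813) are not numbers of reads. Reads are not independent molecules.

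Groups came from the sample titles. The study describes 3 biological replicates processed on the same day. Counts were tested with edgeR 4.0.16 (R 4.3.3, TMM factors, filterByExpr, quasi-likelihood F-test) per comparison on its own libraries, over the whole table, with Benjamini-Hochberg adjustment across all tested features. A member was called at an adjusted p under 0.05. The SE is the log2 fold change divided by the root of the F statistic. CPM is the count scaled to the TMM-normalized library size, or for marker RNAs to the total of features of at most 500 nt. DESeq2 1.42.0 was an alternative.

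Named members followed a rule: the 10 highest in control total RNA, guides of U6, qPCR references, members of GAS5, SNHG1 and RPL13A, 2 imprinted members, and per comparison up to 5 called members in each direction that averaged 50 counts or more and did not overlap between groups, or else the 3 with the smallest p, and the 5 largest and smallest fraction differences. 1 member that this rule names is not reported here. The members, lists and alternatives were chosen with earlier results of these data known. Role lists come from background knowledge. The numbers of replicates are not said to pair libraries. The correlation of deviations between same-numbered libraries was not above 0.1 in every pair of any comparison, so libraries were treated as unpaired. This cannot show whether same-numbered libraries came from the same culture.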

Additional observations from a re-analysis of the deposited data

How the results depend on the processing

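Calls are given here as the percent of members tested. In total RNA 0.606% were lower, and 2.42% with library size alone, 1.21% with the total of features of at most 500 nt, 1.82% with the total of the C/D members, 64.8% with the miRNA total, 10.8% without a filter, 10.3% with DESeq2 and 0% at an adjusted p under 0.01 (0.599% to 7.78% when 1 library was left out). Of all features in the same fits, 0.634%, 0.569%, 0.353%, 20.7%, 0.38% and 2.15% were lower from library size alone to DESeq2. In nuclear RNA 0.595% were lower, and 0% with each of library size alone, the total of short features, the C/D total and the miRNA total, 1% without a filter and 1.19% with DESeq2 (0% to 0.588% when 1 library was left out), beside 0%, 0%, 0%, 0.218%, 0.0516% and 0.509% of all features. In cytoplasmic RNA 0% were lower, and 0.633% with the miRNA total, 1.02% without a filter and 0.633% with DESeq2 (0% when 1 library was left out), beside 0.307%, 0.183% and 0.835% of all features. Between the fractions of control cells 96.4% were higher, and 62.7% with library size alone and 22.9% with the C/D total, while 2.41% were lower, and 16.3% with library size alone, 7.23% with the total of short features, 42.2% with the C/D total, 1.20% with DESeq2 and 1.20% at an adjusted p under 0.01 (1.16% to 2.45% when 1 library was left out). Of all features, 2.48% were higher and 96.3% lower with library size alone, 0.758% and 97.5% with the C/D total, 94.3% lower with the total of short features and 10.6% lower with DESeq2. In siSSB cells 97% were higher, and 23.6% with the C/D total, while 1.82% were lower, and 12.1% with library size alone, 4.85% with the total of short features and 42.4% with the C/D total. Of all features there, 0.693% were higher and 97.6% lower with the C/D total, 96% lower with library size alone and 93.8% lower with the total of short features. The cause of these moves was not tested.

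Signs turned in 62 cases. With the miRNA total, SNORD14E, SNORD33 and SNORD83B in total RNA had -0.13, -0.13 and -0.14, and SNORD7 in cytoplasmic RNA -0.15. With library size alone, the total of short features and the C/D total, SNORD44 in total RNA had 0.020, 0.023 and 0.16 and SNORD48 0.082, 0.096 and 0.23, and with the C/D total SNORD7 in total RNA had 0.019 and SNORD48 in cytoplasmic RNA 0.12. With the same 3 scalings the control fraction difference was -1.96, -0.76 and -3.78 for SNORD15B, -1.82, -0.62 and -3.62 for SNORD169, -2.25, -1.05 and -4.09 for SNORD17, -2.65, -1.44 and -4.50 for SNORD36B, and -1.59, -0.38 and -3.37 for SNORD98. In siSSB cells it was -1.14, -0.016 and -3.21 for SNORD15B, -1.51, -0.37 and -3.60 for SNORD169, -1.34, -0.22 and -3.44 for SNORD17, -2.23, -1.08 and -4.33 for SNORD36B, and -1.35, -0.21 and -3.43 for SNORD98. SNORD7 in nuclear RNA had -0.039 with RLE size factors, -0.084 without a filter and -0.039 with DESeq2, and in cytoplasmic RNA -0.010 without a filter. The difference of SNORD36C between nuc and cyto was -0.032 with RLE size factors, -0.034 with the C/D total and -0.027 with DESeq2. When 1 library was left out, SNORD48 in total RNA ran from -0.77 to 0.022, SNORD7 from -0.061 to 0.13 in nuclear and from -0.26 to 0.37 in cytoplasmic RNA, SNORD10 in cytoplasmic RNA from -0.26 to 0.80, and the difference of SNORD36C between nuc and cyto from -0.43 to 0.28. The cause was not tested.

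Replicate numbers were not used to pair the libraries in the main fits. With the replicate number as a block, 0 members were higher and 1 lower in total RNA, 0 and 1 in nuclear RNA, 0 and 0 in cytoplasmic RNA, 160 and 4 between control fractions, and 160 and 3 between siSSB fractions. Of all features in these fits, 0.267% were higher and 1.17% lower in total, 0.16% and 0.422% in nuclear, and 0.0211% and 0% in cytoplasmic RNA. Between the fractions the shares were 9.18% and 13% in control and 10.6% and 13.8% in siSSB cells. SNORD36C then had -2.22, -1.75 and -1.81 in total, nuclear and cytoplasmic RNA, and a difference of -0.042 between nuc and cyto. Low counts limit the 40 members with fewer than 100 counts.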

Other observations

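In the table, 46 features covered the whole of the SNORD44 feature, 45 of them longer than 500 nt, and a read inside SNORD44 is counted in each. Of these, 28 also covered SNORD81, SNORD47 and SNORD74, so they hold reads of other GAS5 members too. Their part of the column sum was 62.3% to 64.9% for control nuc and 56.9% to 62.5% for siSSB nuc. It was 46% to 47% for control total, 38.4% to 46.3% for siSSB total, 16.4% to 23.2% for control cyto and 12.9% to 17.2% for siSSB cyto. The fraction values with library size alone are scaled to these column sums, and the part of the covering features in them was not tested.

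Of 90 members in none of the lists of targets, 51 passed the filter in the control fraction comparison. Among them 46 were higher in nuc and 4 lower, with a median log2 fold change of 4.47. Over all 166 members tested, 160 were higher and 4 lower, beside 9.21% and 14.1% of all features. The 4 lower were SNORD3P3, SNORD3E and SNORD141A copies, which held few nuclear counts and passed the filter through the cytoplasmic libraries. Their calls are a description only. All 39 tested guides of 18S rRNA and all 59 of 28S rRNA were higher, and a difference between the lists was not tested.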
